A study of Sus scrofa with 2 samples.

Results

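Arterial endothelial cells line the vessels that bring blood to a muscle, and here they were sought as single cell barcodes of piglet longissimus dorsi with transcripts of GJA5 or DLL4. The members were barcodes with at least 500 genes, at least 2 UMIs of the endothelial genes PECAM1 and CLDN5 together, and at least 1 UMI of GJA5 and DLL4 together. They also had fewer than 3 UMIs of the venous and lymphatic genes ACKR1 and MMRN1, fewer than 3 of the mural genes RGS5 and MYH11, and fewer than 20 UMIs per 10000 of the stromal genes DCN and LUM. These limits gave 403 members of 26981 barcodes, 49 of 12286 in the GDSS library and 354 of 14695 in the Yorkshire library. The 10 genes of the limits are described and not tested.

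Arteries, capillaries and veins share 1 layer of endothelium whose cells differ by position. In arterial endothelium the ligand DLL4 activates Notch receptors on neighbouring cells, which turns on repressors such as HEY1, while the transcription factor SOX17 acts upstream and the ligand EFNB2 marks the arterial side against EPHB4 on the venous side. GJA5 and GJA4 encode connexins of the gap junctions that couple arterial endothelial cells, and GJA5 is largely restricted to arteries, whereas DLL4 is also made by capillary and sprouting endothelium. Muscle capillaries, by contrast, are known for fatty acid uptake through CD36 and FABP4 and for the surface carbonic anhydrase CA4.

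The data were single cell RNA counts from the GDSS (Guangdong small-eared spotted) pig and from the Yorkshire pig, breeds that the series describes as differing in intramuscular fat, with 1 library per breed. The cells, labelled intramuscular vascular stem cells, came from 1 g of longissimus dorsi per piglet, passed red cell lysis and dead cell removal with magnetic beads, and were made into libraries with a 10x Genomics v2 kit, per the labels. The labels name no genetic change and no drug for either breed. How many piglets were used, their sex, their age, and what P0 stands for are not given in the sources used here. With 1 library per breed, the breed, the animals, the preparation and the library cannot be told apart, and no test between breeds is given. Intervals are at the 95% level, and they take in the error of counting alone.

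The GDSS matrix held 42093851 UMIs and the Yorkshire matrix 54300953, and 11533 and 14318 barcodes had at least 500 genes. The libraries shared 47 barcode strings, of which 0 belonged to members. In GDSS 527 and in Yorkshire 2023 barcodes met the limit on PECAM1 and CLDN5, and 275 and 1634 of them passed the exclusions. The comparison barcodes were the 226 GDSS and 1280 Yorkshire barcodes that passed the same exclusions and had 0 UMIs of GJA5 and DLL4, called other endothelial barcodes here. Members held a median of 3246 UMIs in GDSS and 4574.5 in Yorkshire, against 3509.5 and 2828 in the other endothelial barcodes. A barcode with more UMIs has more chances to show GJA5 or DLL4, so values at an equal depth are given beside the main ones.

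Most members were chosen by DLL4 and by a single UMI. In GDSS 46 members had DLL4 alone, 3 had both genes and 0 had GJA5 alone. In Yorkshire 303 had DLL4 alone, 35 had both and 16 had GJA5 alone. Just inside the limit, 35 of the 49 GDSS members had exactly 1 UMI of GJA5 and DLL4, 8 had 2, and 6 had 3 or more. In Yorkshire 64 of the 354 had 2, 45 had 3 or more, and the others had 1. On the limit for PECAM1 and CLDN5, 7 GDSS and 11 Yorkshire members had exactly 2 UMIs, and 5 and 4 barcodes that met every other limit stood just outside with 1. A UMI of GJA5 or DLL4 was rare in stromal barcodes, the only class outside endothelium in which it was counted. It was present in 0.759% (0.581 to 0.974) of GDSS and 0.600% (0.328 to 1.00) of Yorkshire stromal barcodes, whose median depths were 3010 and 3891.5 UMIs, against 17.8% (13.5 to 22.9) and 21.7% (19.7 to 23.7) of the endothelial barcodes that passed the exclusions, with medians of 3496 and 3087.5 UMIs.

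Members made up 9.30% (6.96 to 12.1) of GDSS and 17.5% (15.9 to 19.2) of Yorkshire endothelial barcodes. Among the endothelial barcodes that were not members, 78 of 478 in GDSS and 24 of 1669 in Yorkshire held at least 2 UMIs of 6 leukocyte genes. When every barcode was thinned to 1500 UMIs before the limits were applied, the shares were 10.9% (7.19 to 15.7) in GDSS and 8.70% (7.35 to 10.2) in Yorkshire, with 25 of 229 and 136 of 1564 barcodes. The order of the libraries thus turned round at equal depth, and the intervals overlapped. The exclusions removed 252 of 527 GDSS and 389 of 2023 Yorkshire endothelial barcodes. Of those excluded, 21.03% (16.2 to 26.6) in GDSS and 23.7% (19.5 to 28.2) in Yorkshire had a UMI of GJA5 or DLL4. No difference in the share of members between the libraries is read from these values.

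The label was checked on SOX17, HEY1 and EFNB2, which the limits did not use. At 1500 UMIs per barcode, which left 42 GDSS and 338 Yorkshire members, SOX17 was detected in 38.1% (23.6 to 54.4) of GDSS and 47.6% (42.2 to 53.1) of Yorkshire members. In the other endothelial barcodes the shares were 18.7% (13.4 to 25.1) and 34.0% (31.3 to 36.8), and in stromal barcodes 0.0270% and 0.361%. SOX17 was thus a gene of endothelium as a whole, with the higher share in members of both libraries. HEY1 was detected in 7.14% (1.498 to 19.5) of GDSS and 21.3% (17.1 to 26.1) of Yorkshire members, against 4.28% (1.86 to 8.26) and 11.5% (9.72 to 13.5) of the other endothelial barcodes and 3.29% and 3.07% of stromal barcodes. EFNB2 was detected in 4.76% (0.582 to 16.2) and 19.2% (15.2 to 23.8) of members, against 5.88% (2.97 to 10.3) and 12.1% (10.3 to 14.1) of the other endothelial barcodes and 0.889% and 1.81% of stromal barcodes. In Yorkshire the intervals of members lay above those of the other endothelial barcodes for all 3 genes. In GDSS they overlapped for all 3, and the share with EFNB2 was not above that of the other endothelial barcodes.

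Without thinning, SOX17 was detected in 59.2% of GDSS and 70.6% of Yorkshire members, HEY1 in 28.6% and 43.2%, and EFNB2 in 24.5% and 45.8%. The other endothelial barcodes, of which 62 of 226 in GDSS held leukocyte genes, had 32.3% and 46.1% for SOX17, 9.29% and 21.4% for HEY1, and 15.0% and 23.0% for EFNB2. Of the 3 markers, 11 of 49 GDSS and 59 of 354 Yorkshire members showed none, and 4 and 89 showed all 3. At least 2 UMIs of the capillary genes CA4, CD36 and RGCC together were found in 46 of 49 GDSS and 335 of 354 Yorkshire members. The other endothelial barcodes had them in 206 of 226 and 1188 of 1280. The label arterial was thus borne out in part, for the Yorkshire members, most of which also held capillary transcripts. The barcodes are called DLL4- or GJA5-positive endothelial barcodes, or members.

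**Figure D1:**
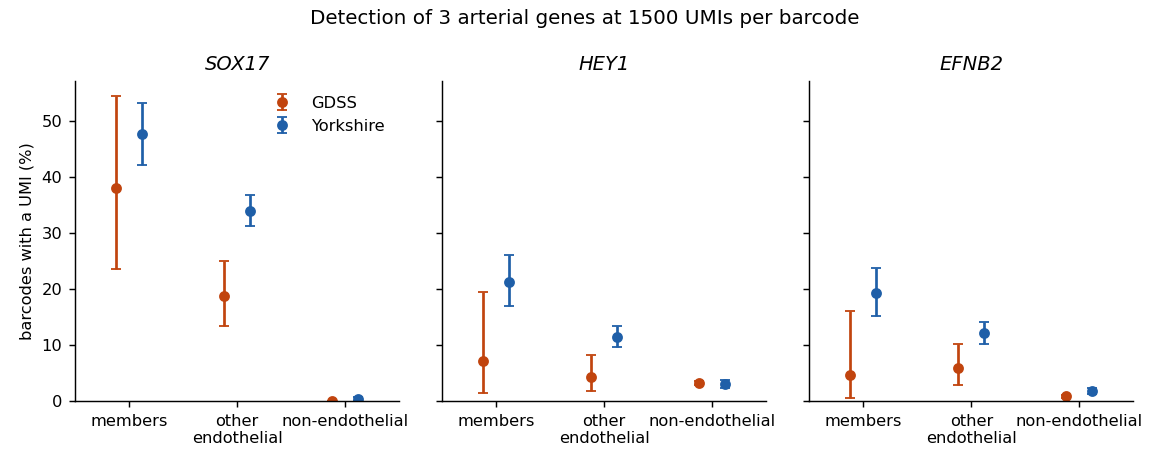
Percent of barcodes with at least 1 UMI of SOX17, HEY1 and EFNB2 after each barcode was thinned to 1500 UMIs, in members, other endothelial barcodes and non-endothelial (stromal) barcodes, with the GDSS library in orange and Yorkshire in blue. Points are shares and bars exact 95% binomial intervals. The Yorkshire members sit at 47.6%, 21.3% and 19.2%, above the other endothelial barcodes, while the wide GDSS intervals overlap for all 3 genes.

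In the Yorkshire library, arterial genes were mostly higher the more UMIs of GJA5 and DLL4 a barcode held. The 3 markers and 12 of 15 other arterial genes with at least 30 UMIs were higher at every step over the bins of 0, 1, 2 and 3 or more UMIs, and 0 were lower at every step, beside 704 of 6291 genes (11.2%) that were higher. From 0 through 1 and 2 to 3 or more UMIs of GJA5 and DLL4, SOX17 had 360.2, 507, 678 and 1171 CPM (UMIs scaled to a total of 1000000 per class of barcodes). HEY1 had 93.9, 149.7, 177 and 356, and EFNB2 had 83.1, 118, 206 and 285. GJA4, the connexin that pairs with GJA5 in arterial endothelium, had 56.0, 111, 213 and 487 CPM. All 4 genes stood in the order of the bins, with 0 UMIs lowest. The same order held for a guidance cue and a vasoactive peptide. SEMA3G, a secreted semaphorin of arterial endothelium, had 43.7, 57.4, 102 and 251 CPM, and EDN1, the vasoconstrictor endothelin 1, had 55.3, 101, 175 and 515.

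Of 17 capillary genes measured in Yorkshire, 9 were lower at every step and 0 were higher at every step, beside 485 of 6291 genes (7.71%) that were lower. All 17 stood lower in the last bin than in the first. Among the 9, CA4 had 674, 572, 411 and 108 CPM over the same bins, CD36, a fatty acid transporter, had 2772, 2567, 2189.8 and 1159, and RGCC, a cell cycle regulator enriched in capillaries, had 1424, 1248, 1179 and 715. NR2F2, a transcription factor of venous identity, had 62.5, 54.1, 33.1 and 15.9. Barcodes with more GJA5 and DLL4 were also deeper, with Yorkshire medians of 2828, 3977, 5004.5 and 11114 UMIs over the bins. In GDSS the bins with 2 and with 3 or more UMIs held 8 and 6 barcodes. SOX17 there had 129, 336, 653 and 348 CPM, HEY1 24.5, 73.9, 81.6 and 151, EFNB2 39.0, 67.2, 0 and 121 and CD36 1500.4, 2123, 3306 and 2271. The GDSS intervals of the last 2 bins overlapped, and no order of the GDSS bins is read from them.

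**Figure D2:**
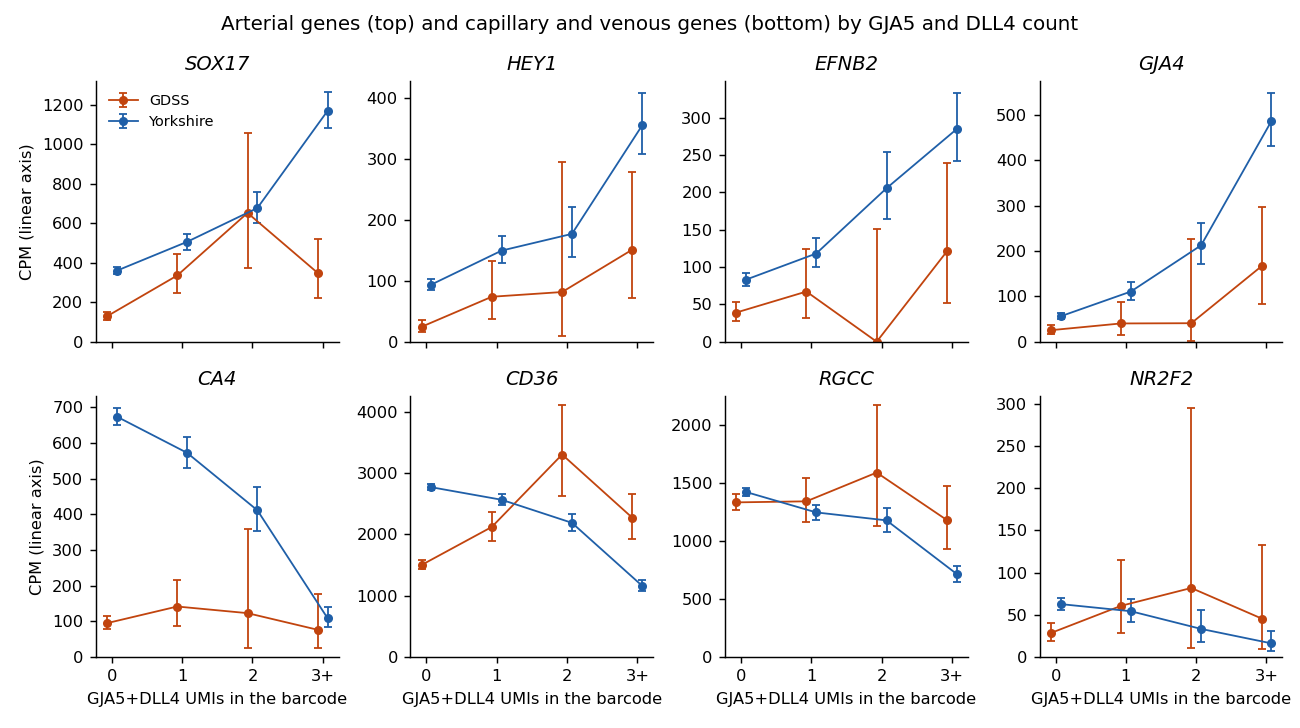
CPM on linear axes that start at 0, by the number of GJA5 and DLL4 UMIs in a barcode (0, 1, 2, and 3 or more), for 4 arterial genes in the top row, and for 3 capillary genes and the venous gene NR2F2 in the bottom row, in GDSS (orange) and Yorkshire (blue). Points are summed counts of a bin and bars exact 95% Poisson intervals. In Yorkshire SOX17 reaches 1171 and CA4 comes down to 108 CPM in the last bin, while the GDSS bins have wide intervals.

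In Yorkshire the 3 arterial markers and 11 of 15 other arterial genes were higher in members with GJA5 than in those with DLL4 alone, and 0 were lower, counted where the ratio was at least 1.5-fold with an interval that left out 1, beside 12.1% of 6291 genes that were higher. There were 51 GJA5-positive and 303 DLL4-only Yorkshire members. SOX17 had 1227 CPM in GJA5-positive and 539.9 in DLL4-only barcodes, a ratio of 2.27 (2.05 to 2.52). HEY1 had 381 CPM in GJA5-positive and 151 in DLL4-only barcodes, a ratio of 2.53 (2.09 to 3.05), and EFNB2 had 322 CPM in GJA5-positive and 130.1 in DLL4-only barcodes, a ratio of 2.48 (2.02 to 3.04). The 3 arterial markers thus stood well apart inside the Yorkshire members, with all intervals above 1. GJA4 had 553 CPM in GJA5-positive and 119 in DLL4-only barcodes, SEMA3G had 275 CPM in GJA5-positive and 63.2 in DLL4-only barcodes, and EDN1 had 577 CPM in GJA5-positive and 104 in DLL4-only barcodes. VWF, the clotting factor carrier of larger vessels, had a ratio of 2.13 (1.70 to 2.67).

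By the same count 13 of 17 capillary genes were lower in the GJA5-positive Yorkshire barcodes and 0 were higher, beside 7.92% of all genes that were lower, and the ratio was under 1 for all 17. CA4 had 22.0 CPM in GJA5-positive and 554 in DLL4-only barcodes, with 12 UMIs in all GJA5-positive barcodes together. CD36 had 736 CPM in GJA5-positive and 2594 in DLL4-only barcodes, RGCC had 551 CPM in GJA5-positive and 1278 in DLL4-only barcodes, and FABP4, a fatty acid carrier, had 3901 CPM in GJA5-positive and 7407 in DLL4-only barcodes. APLNR, the apelin receptor of capillary and venous endothelium, had 14.7 CPM in GJA5-positive and 73.6 in DLL4-only barcodes. All of these were lower in GJA5-positive barcodes, with ratios between 0.0397 for CA4 and 0.527 for FABP4. Among 2870 genes with at least 100 UMIs and no barcode holding more than 20% of them, the highest ratios were those of TMEM100 at 12.2 (8.30 to 18.5), a membrane protein of arterial endothelium, and GPER1 at 11.5 (7.03 to 19.5), a membrane oestrogen receptor. CYP1A1, a xenobiotic oxidase, was at 7.77 (5.29 to 11.6), and IGFBP2, a binding protein of insulin-like growth factors, at 6.89 (5.87 to 8.11). The tissue plasminogen activator PLAT was at 5.95 (4.92 to 7.22). The lowest beside CA4 were CCL4, a chemokine, at 0.0840 (0.0600 to 0.115), GPX3, an antioxidant enzyme, at 0.0988 (0.0265 to 0.259), and ANGPTL4, an inhibitor of lipoprotein lipase, at 0.102 (0.0636 to 0.156). The genes at both ends were picked for their ratios, so these are descriptions with no test, and the median log2 ratio of the 2870 genes was 0.03.

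GJA5-positive Yorkshire barcodes held a median of 9629 UMIs and DLL4-only barcodes 4457, so the values were also taken at like depth. Among barcodes above the 95th percentile of UMIs of the library, 30 GJA5-positive barcodes had a median of 14506.5 and 49 DLL4-only barcodes one of 11184 UMIs. There SOX17 had 1266 CPM in GJA5-positive and 543 in DLL4-only barcodes, HEY1 394 and 156, and GJA4 595 and 139. CA4 had 12.8 and 339, and CD36 693 and 2042. The ratios were of a like size to those over all members. At 1500 UMIs per barcode, CA4 was detected in 4.08% of GJA5-positive and 49.5% of DLL4-only barcodes, CD36 in 49.0% and 90.7%, and SOX17 in 65.3% and 44.6%. The same split in GDSS rests on 3 GJA5-positive barcodes, 1 of which held 32733 UMIs. CA4 was at 0 UMIs in these 3 barcodes, CD36 stood at 2399 CPM against 2255 in the 46 DLL4-only barcodes, and SOX17 at 325 against 384.

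**Figure D3:**
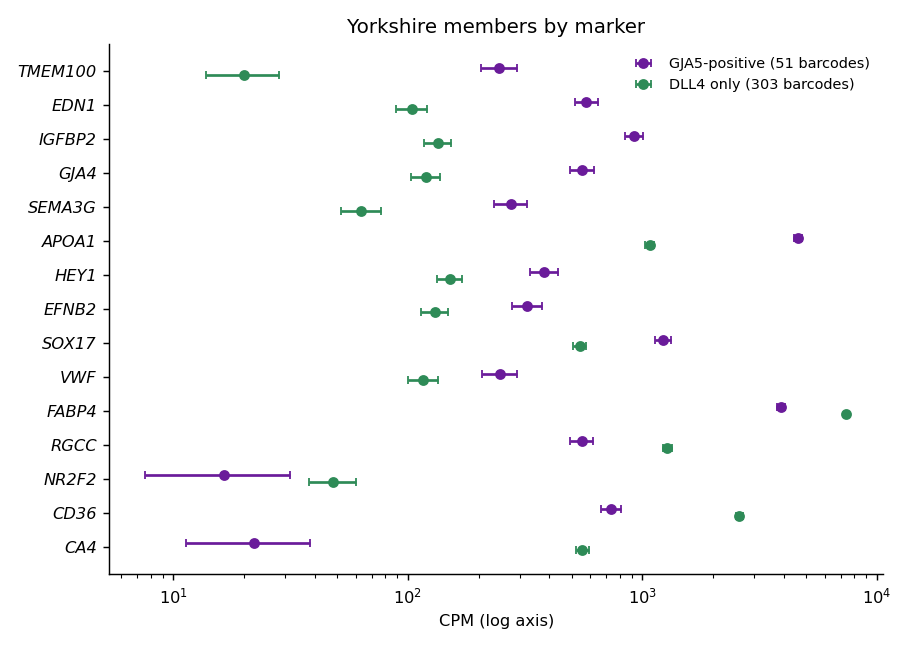
CPM on a log axis in the 51 GJA5-positive (purple) and 303 DLL4-only (green) Yorkshire members, for 15 genes ordered from those higher in GJA5-positive barcodes to those lower. Points are summed counts and bars exact 95% Poisson intervals. EDN1 stands at 577 against 104 and CA4 at 22.0 against 554.

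The next comparison asked which genes differed between members and the other endothelial barcodes of the same library. APOA1, the main apolipoprotein of high-density lipoprotein, IGFBP2, EDN1 and GJA4 rose in members, and a set of leukocyte and macrophage genes fell. APOA1 had 2448 CPM in GDSS and 1956 in Yorkshire members, against 274 and 531 in the other barcodes (log2 ratio 2.42 ± 0.30, adjusted p = 0.00126). In GDSS 1 barcode held 58.0% of the members' APOA1 UMIs, and in Yorkshire 8.14%. IGFBP2 had 188 CPM in GDSS and 330.0 in Yorkshire members, against 19.96 and 88.8 in the other barcodes (log2 ratio 2.35 ± 0.36, adjusted p = 0.00577). EDN1 had 91.9 CPM in GDSS and 222 in Yorkshire members, against 13.6 and 55.3 in the other barcodes (log2 ratio 2.19 ± 0.35, adjusted p = 0.00789), and GJA4 had 75.2 CPM in GDSS and 227 in Yorkshire members, against 25.4 and 56.0 in the other barcodes (log2 ratio 1.78 ± 0.35, adjusted p = 0.0246). For these 4 genes the ratio of members over the other barcodes was above 1 in both libraries, with both counting intervals above 1. GJA4 did not pass without the 2 deepest GDSS barcodes, where its log2 ratio was 1.47 (adjusted p = 0.146 by edgeR).

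The test was edgeR's quasi-likelihood test on raw counts summed per library and class, with the library as a block and Benjamini-Hochberg adjustment over 9572 genes, and errors are standard errors. In all, 16 genes rose (0.167%) and 76 fell (0.794%), 0.961% in either direction, with the sign the same in both libraries for all 92. The 4 sums left 1 residual degree of freedom. Without the library block 0 genes passed, with 305 at an unadjusted p under 0.05 against 568 with it, and DESeq2 called 46. With bias-adjusted deviances in edgeR, an alternative added after the data were seen, 0 passed and 452 were at an unadjusted p under 0.05. The calls are therefore read beside each library's own values.

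The further genes that rose were GPER1 (log2 ratio 3.12, adjusted p = 0.00771), ENPP2, the enzyme autotaxin that makes lysophosphatidic acid (log2 ratio 2.58, adjusted p = 0.0137), and SIGIRR, an inhibitor of interleukin 1 receptor signalling (log2 ratio 2.19, adjusted p = 0.0226). BCR, a regulator of small GTPases (log2 ratio 1.86, adjusted p = 0.0328), STC2, a secreted stanniocalcin (log2 ratio 2.06, adjusted p = 0.0328), SCARA3 (log2 ratio 2.35, adjusted p = 0.0342) and EFEMP1, an extracellular matrix fibulin (log2 ratio 2.73, adjusted p = 0.0366) rose as well, all by edgeR, and BCR did not pass without the 2 deepest GDSS barcodes, at a log2 ratio of 1.56 (adjusted p = 0.0798). They rest on few GDSS UMIs, 3 for GPER1, 12 for ENPP2, 7 for SIGIRR, 14 for BCR, 5 for STC2, 4 for SCARA3 and 2 for EFEMP1. CCK, a peptide hormone and neuropeptide, had the highest ratio (log2 ratio 5.22, adjusted p = 0.0111), and all 64 of its UMIs in GDSS members were in 1 barcode of 3246 UMIs, against 3 UMIs in Yorkshire members.

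Of the 3 arterial markers outside the limits, 0 passed this test, and all 3 were at an unadjusted p under 0.05 by edgeR. DESeq2 called 0 of them. SOX17 had 372 CPM in GDSS and 711 in Yorkshire members, against 129 and 360.2 in the other barcodes (log2 ratio 1.15 ± 0.29, adjusted p = 0.103). HEY1 had 96.1 CPM in GDSS and 208 in Yorkshire members, against 24.5 and 93.9 in the other barcodes (log2 ratio 1.39 ± 0.34, adjusted p = 0.0972), and EFNB2 had 75.2 CPM in GDSS and 178 in Yorkshire members, against 39.0 and 83.1 in the other barcodes (log2 ratio 0.96 ± 0.33, adjusted p = 0.403). Each library's own ratio had a counting interval above 1 for all 3 genes, at 2.89 (2.19 to 3.79) in GDSS and 1.97 (1.84 to 2.12) in Yorkshire for SOX17, 3.92 (2.15 to 7.10) and 2.22 (1.94 to 2.53) for HEY1, and 1.93 (1.05 to 3.41) and 2.14 (1.86 to 2.47) for EFNB2. Of 15 other arterial genes tested, 1 rose, GJA4, and 10 were at an unadjusted p under 0.05, all higher. The median log2 ratio of these 15 was 1.12 in GDSS and 1.20 in Yorkshire, where that of all genes tested was 0.18 and 0.03. The 19 pan-endothelial genes tested had medians of 1.12 in GDSS and 0.22 in Yorkshire. The rise in GDSS was thus not particular to arterial genes.

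The genes that fell included those of white blood cells, which carry PECAM1 on their surface too. IL1R2, a decoy receptor of interleukin 1, had 0 UMIs in members of both libraries, against 306 CPM in GDSS and 7.63 in Yorkshire other barcodes (adjusted p = 7.44e-04). S100A12, a calcium-binding protein of granulocytes, had 0 UMIs in members against 227 and 11.9 (adjusted p = 7.44e-04). PTPRC, the pan-leukocyte phosphatase CD45, had 0 CPM in GDSS and 0.456 in Yorkshire members, against 177 and 18.0 in the other barcodes (adjusted p = 7.84e-04), and TYROBP, an adaptor of myeloid receptors, had 29.2 CPM in GDSS and 5.48 in Yorkshire members, against 740.2 and 71.7 in the other barcodes (adjusted p = 5.69e-04). All were higher in the other barcodes of both libraries and highest in those of GDSS. Of 11 macrophage markers 10 fell, and of 12 cytokine genes IL1A and CCL5 fell, all by edgeR. Summed over the macrophage list, members had 246 CPM in GDSS and 82.6 in Yorkshire, against 6173 and 448 in the other barcodes, with 2 of 11 genes at 0 in GDSS members.

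Counted by barcode, at least 2 UMIs of 6 leukocyte genes were found in 2 of 49 GDSS and 3 of 354 Yorkshire members, against 62 of 226 and 16 of 1280 other endothelial barcodes. The limit of 2 UMIs on PECAM1 and CLDN5 together could be met by PECAM1 alone, and CLDN5, a tight junction claudin of endothelium, was detected in 42 of 49 and 318 of 354 members and in 130 of 226 and 1054 of 1280 other barcodes. Among the barcodes with CLDN5, leukocyte genes were found in 1 of 42 and 2 of 318 members and in 3 of 130 and 2 of 1054 other barcodes. The comparison was therefore repeated with at least 1 UMI of CLDN5 in both classes, a limit chosen after these values were seen.

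Among barcodes with CLDN5, 2 of 3 arterial markers and 9 of 15 other arterial genes rose in members, and 6 of 18 capillary genes fell. In all, 114 genes rose (1.27%) and 24 fell (0.267%) of 8977 tested by the same edgeR fit, 1.54% in either direction. The sign was the same in both libraries for 103 of the 114 and for 22 of the 24. Without the library block 0 of these genes passed by edgeR, with 159 at an unadjusted p under 0.05 against 676 with it. With bias-adjusted deviances 2 passed, APOA1 (adjusted p = 0.0129) and GPER1 (0.0385), and 720 were at an unadjusted p under 0.05. By that edgeR fit IGFBP2 and THBS1 had an adjusted p of 0.0587 each, EDN1 of 0.0607, SOX17 of 0.385, HEY1 of 0.238, GJA4 of 0.193, CA4 of 0.205 and CD36 of 0.239. The adjusted p-values that follow come from the fit with the library block and without that adjustment.

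SOX17 had 381 CPM in GDSS and 722 in Yorkshire members, against 289.5 and 395 in the other barcodes (log2 ratio 0.64 ± 0.16, adjusted p = 0.00619), and HEY1 had 76.2 CPM in GDSS and 209 in Yorkshire members, against 45.6 and 94.7 in the other barcodes (log2 ratio 1.00 ± 0.23, adjusted p = 0.00248). EFNB2 did not pass, with 67.2 CPM in GDSS and 184 in Yorkshire members, against 70.7 and 85.6 in the other barcodes (log2 ratio 0.75 ± 0.23, adjusted p = 0.0787). In GDSS alone the counting intervals of all 3 ratios held 1, at 1.32 (0.988 to 1.75) for SOX17, 1.67 (0.822 to 3.36) for HEY1 and 0.951 (0.477 to 1.82) for EFNB2, against 1.83 (1.70 to 1.96), 2.21 (1.92 to 2.54) and 2.14 (1.85 to 2.49) in Yorkshire. The calls thus rest mainly on Yorkshire, which held 318 members with CLDN5 against 42 in GDSS.

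Of 15 other arterial genes 9 rose and 0 fell by edgeR. GJA4 had 76.2 CPM in GDSS and 234 in Yorkshire members, against 43.3 and 55.1 in the other barcodes (log2 ratio 1.73 ± 0.24, adjusted p = 9.81e-10). SEMA3G (log2 ratio 1.48, adjusted p = 9.07e-05), TMEM100 (log2 ratio 1.80, adjusted p = 1.57e-04), CLU, the chaperone clusterin (log2 ratio 1.59, adjusted p = 3.38e-04), and NEBL, an actin-binding nebulette (log2 ratio 1.25, adjusted p = 9.86e-04), rose by more than the transcription factor MECOM (log2 ratio 0.95, adjusted p = 0.0153). ALPL, VEGFC and DEPP1 rose too, with log2 ratios of 1.71, 1.16 and 0.64. The 15 genes had a median log2 ratio of 0.15 in GDSS and 1.39 in Yorkshire, beside 0.06 and 0.06 over all genes tested. In GDSS the ratios of ALPL, DEPP1 and TMEM100 were under 1, and TMEM100, ALPL, VEGFC, SEMA3G and MECOM had between 2 and 8 UMIs there.

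APOA1 was the most firmly called gene, with 2621 CPM in GDSS and 2014 in Yorkshire members, against 574 and 514 in the other barcodes (log2 ratio 2.02 ± 0.13, adjusted p = 6.76e-53). IGFBP2 had 197 CPM in GDSS and 337 in Yorkshire members, against 27.4 and 81.8 in the other barcodes (log2 ratio 2.19 ± 0.22, adjusted p = 2.11e-20), and EDN1 had 80.7 CPM in GDSS and 229 in Yorkshire members, against 25.1 and 56.9 in the other barcodes (log2 ratio 1.90 ± 0.25, adjusted p = 3.07e-11). THBS1, the matricellular thrombospondin 1, had 372 CPM in GDSS and 518 in Yorkshire members, against 112 and 163 in the other barcodes (log2 ratio 1.64 ± 0.18, adjusted p = 1.53e-16). PLAT (log2 ratio 1.47, adjusted p = 3.85e-10), the inward rectifier potassium channel KCNJ2 (log2 ratio 1.88, adjusted p = 0.00219) and the shear-responsive protease ADAMTS1 (log2 ratio 0.81, adjusted p = 9.07e-04) rose as well. Of the 114 genes that rose, 30 had more than 50% of their GDSS member UMIs in 1 barcode, and among these were APOA1 at 58.1%, THBS1 at 57.8%, PLAT at 56.0% and EDN1 at 55.6%. Without the 2 deepest GDSS barcodes, 92 genes rose and 16 fell, and the counts were 3 of 3 for the arterial markers, EFNB2 included, and 9 of 15 for the other arterial genes.

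Of 18 capillary genes 6 fell and 0 rose by edgeR, with 10 lower and 0 higher at an unadjusted p under 0.05. CA4 had 108 CPM in GDSS and 434 in Yorkshire members, against 221 and 755 in the other barcodes (log2 ratio −0.91 ± 0.17, adjusted p = 3.24e-05). CD36 had 2227 CPM in GDSS and 2082 in Yorkshire members, against 2961 and 2967 in the other barcodes (log2 ratio −0.51 ± 0.11, adjusted p = 8.25e-04), and RGCC had 1317 CPM in GDSS and 1083 in Yorkshire members, against 1801 and 1491 in the other barcodes (log2 ratio −0.50 ± 0.12, adjusted p = 0.00399). The fatty acid carrier FABP5 (log2 ratio −0.33, adjusted p = 0.0389), the water channel AQP1 (log2 ratio −0.45, adjusted p = 0.0195) and TMEM88, an endothelial inhibitor of Wnt signalling (log2 ratio −0.57, adjusted p = 0.0206), fell as well. All 6 were lower in members of both libraries, with both counting intervals under 1. Of the 18, 1 passed without the 2 deepest GDSS barcodes, CA4, while CD36 stood at a log2 ratio of −0.45 (adjusted p = 0.0791) and RGCC at −0.39 (adjusted p = 0.297) by edgeR, and FABP5, AQP1 and TMEM88 at −0.15, −0.24 and −0.40. FABP4 did not follow them, with 3885 CPM in GDSS and 6416 in Yorkshire members, against 2038 and 8271 in the other barcodes (log2 ratio 0.21 ± 0.11, adjusted p = 0.671), and 61.4% of its UMIs in GDSS members were in 1 barcode. CLEC3B, the plasminogen-binding tetranectin (log2 ratio −0.51, adjusted p = 7.75e-04), and IGFBP6, a binding protein of insulin-like growth factor 2 (log2 ratio −0.63, adjusted p = 1.59e-04), also fell.

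At equal depth fewer genes passed, on far fewer UMIs. With CLDN5 in both classes and every barcode thinned to 1500 UMIs, 29 genes rose and 21 fell of 5959 tested, against 8977 tested without thinning. The Yorkshire member sum went from 2086723 to 465000 UMIs and the GDSS one from 223159 to 55500. The effect of equal depth and that of the discarded UMIs cannot be told apart here. Of these 50 genes 31 were among the 138 called without thinning. APOA1 (adjusted p = 1.87e-22), IGFBP2 (1.57e-07), EDN1 (3.79e-05), THBS1 (6.40e-04) and TMEM100 (0.00135) passed as higher by edgeR. CD36 (0.00179), RGCC (0.0356), FABP5 (0.00351), CLEC3B (1.54e-06), IGFBP6 (0.0302) and FABP4 (4.95e-04) passed as lower. SOX17 (0.142), HEY1 (0.0983), GJA4 (0.232) and CA4 (0.127) did not pass, at log2 ratios of 0.54, 0.90, 0.85 and −0.54.

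**Figure D4:**
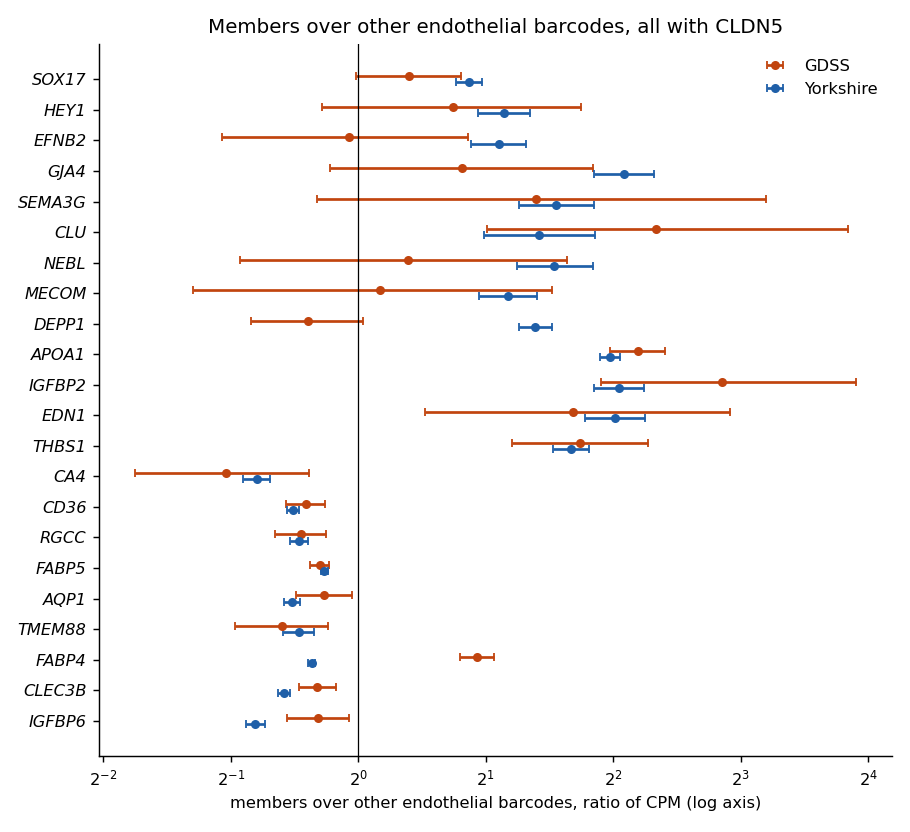
Ratio of CPM in members over other endothelial barcodes, all with CLDN5, on a log axis for 22 genes, in GDSS (orange) and Yorkshire (blue). Points are ratios of summed counts and bars exact 95% conditional intervals, and the line marks a ratio of 1. APOA1, IGFBP2, EDN1 and THBS1 lie right of the line in both libraries, CA4, CD36 and RGCC lie left of it in both, and FABP4 lies on opposite sides, at 1.91 in GDSS and 0.776 in Yorkshire.

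No gene of the Notch pathway list passed against the other endothelial barcodes, in the main fit or in that with CLDN5. The list does not hold HEY1. Of 14 genes of the pathway tested with CLDN5 in both classes 0 passed by edgeR, with 4 higher and 1 lower at an unadjusted p under 0.05. The median log2 ratio was −0.05 in GDSS and 0.20 in Yorkshire. The endothelial receptor NOTCH4 had 67.2 CPM in GDSS and 96.8 in Yorkshire members, against 98.0 and 71.4 in the other barcodes (adjusted p = 0.998). The ligand JAG1 had 49.3 CPM in GDSS and 96.8 in Yorkshire members, against 66.1 and 51.3 in the other barcodes (adjusted p = 0.610), and the target HES1 had 950.0 CPM in GDSS and 1148 in Yorkshire members, against 1085 and 1335 in the other barcodes (adjusted p = 0.631). NOTCH4 and JAG1 were higher in Yorkshire members and lower in GDSS members than in the other barcodes. They had only 15 and 11 UMIs over all GDSS members, so no split between the libraries is read from them. Over the Yorkshire bins of GJA5 and DLL4 UMIs, 5 of 10 Notch genes were higher at every step and 1 lower, beside 11.2% and 7.71% of 6291 genes. By the 1.5-fold count, 4 of the 10 were higher in GJA5-positive than in DLL4-only Yorkshire members and 1 lower, beside 12.1% and 7.92%.

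In each further group named here 1 or 2 genes rose with CLDN5 in both classes, beside 1.27% of all 8977 genes tested. Each of these lists had a larger share of genes that rose than all genes, but that share rests on 1 or 2 genes. Of 19 pan-endothelial genes 1 rose, the membrane protein TM4SF1 (log2 ratio 0.57, adjusted p = 0.00159), and the list's median log2 ratio was −0.09 in GDSS and 0.09 in Yorkshire. Of 14 SOX and ETS endothelial factors 2 rose, SOX17 and ETS2 (log2 ratio 0.52, adjusted p = 0.0355). Of 11 venous genes 1 rose, ICAM1, an adhesion molecule that inflammation induces (log2 ratio 0.66, adjusted p = 0.00758), and NR2F2 had 62.7 CPM in GDSS and 40.3 in Yorkshire members, against 50.2 and 69.1 in the other barcodes (adjusted p = 0.732). Of 29 elastic fibre and basement membrane genes 2 rose, COL18A1 (log2 ratio 1.22, adjusted p = 6.37e-04) and the calcification inhibitor MGP (log2 ratio 0.63, adjusted p = 0.0145), and MGP was at 179 CPM in both Yorkshire classes. Of 20 TGF-beta and BMP genes the inhibitor SMAD7 rose (log2 ratio 0.94, adjusted p = 0.0374), and of 16 guidance genes SEMA3G and SEMA7A rose (log2 ratio 1.14, adjusted p = 0.00459, of SEMA7A). Without the 2 deepest GDSS barcodes TM4SF1, ETS2, COL18A1, MGP, SMAD7 and SEMA7A did not pass, at log2 ratios of 0.51, 0.57, 0.88, 0.30, 0.66 and 0.94, and 1 gene of the Notch list did, the transcription factor HES4.

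Markers of other cells in the members were counted too. Of 8 FAP markers tested, the markers of fibro-adipogenic progenitors, GSN and PI16 rose, PI16 with 0 UMIs in both GDSS classes. Summed over all members, the FAP list had 1015 CPM in GDSS and 908 in Yorkshire members, against 948 and 839 in the other endothelial barcodes, with 2 of 10 genes at 0 in GDSS members. Mural markers had 476 and 231 CPM in members against 199 and 212, with 4 of 14 genes at 0 in GDSS members, and 0 of 7 passed by edgeR with CLDN5 in both classes, with 2 higher and 1 lower at an unadjusted p under 0.05. The GDSS sums lean on single barcodes. The member of 32733 UMIs had 22.0 UMIs of mural markers per 10000, and that of 27325 UMIs had 26.7 of FAP markers. The complement gene C1QB fell in members, with 0 CPM in GDSS and 21.6 in Yorkshire members, against 255 and 17.5 in the other barcodes (adjusted p = 0.00389, edgeR). C1QB was not lower in Yorkshire members, and its call ended without the 2 deepest GDSS barcodes (log2 ratio −1.02, adjusted p = 0.0616). Their part in the other results was not tested.

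Set against all other barcodes with at least 2 UMIs of PECAM1 and CLDN5, which need not meet the exclusions, 86 genes rose (0.79%) and 352 fell (3.23%) of 10892, 4.02% in either direction. The exclusions remove barcodes with mural, stromal, venous and lymphatic transcripts, so falls of such genes are no finding. Of 14 mural markers 7 fell, of 10 FAP markers 9 fell, of 7 lymphatic genes 4 fell and of 13 venous genes 4 fell. SOX17 (log2 ratio 1.12, adjusted p = 1.64e-04) and HEY1 (0.89, 0.0120) rose, and so did APOA1 (1.63, 6.30e-09) and EDN1 (1.16, 2.66e-04), by edgeR. Of 19 pan-endothelial genes 4 rose and 0 fell, and of 18 capillary genes 4 rose and 1 fell, at median log2 ratios of 0.61 and 0.50. Rises of endothelial genes against these barcodes are therefore not read as arterial. Of 17 genes of the Notch list 3 rose and 2 fell. Without the library block 0 genes passed, with 597 at an unadjusted p under 0.05.

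The last comparison set GDSS members beside Yorkshire members. Most arterial genes were lower in GDSS members, MGP and the retinol-binding protein RBP7 were higher, and many of the highest ratios came from 1 or 2 barcodes. A gene was called when the libraries stood at least 1.5-fold apart with a counting interval that left out 1. Of 6557 genes with at least 30 UMIs, 355 were higher in GDSS (5.41%) and 625 lower (9.53%). With TMM factors in place of library totals the split was 510 higher and 429 lower, and the median log2 ratio of all genes 0.06 in place of −0.08. The same libraries differed in the other endothelial barcodes, where 729 of these genes were higher in GDSS (11.1%) and 1719 lower (26.2%), but 62 of the 226 GDSS barcodes of that class and 16 of the 1280 Yorkshire ones held leukocyte genes. The members are therefore set beside the other barcodes with CLDN5, 130 in GDSS and 1054 in Yorkshire, where 379 of the 6557 genes were higher in GDSS (5.78%) and 679 lower (10.4%). The ratio in those barcodes stands beside that of all members.

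Depth was uneven among the 49 GDSS members. Of their 239419 UMIs, 2 barcodes of 32733 and 27325 UMIs held 25.1%, whereas the 2 deepest of 354 Yorkshire members held 2.98% of 2190814 UMIs. Without these 2 barcodes, 255 genes were higher in GDSS (3.94%) and 579 lower (8.94%) of 6479, and 175 of the 355 higher and 398 of the 625 lower genes kept their call. The deeper barcode held 4 UMIs of GJA5 and 2 of DLL4, and the next 1 UMI of DLL4. Both carried CLDN5, with 8 and 15 UMIs, and 2.30% and 2.44% mitochondrial UMIs. The first had 22.0 UMIs of mural markers per 10000 outside the limits and the second 26.7 of FAP markers. Whether they were doublets was not tested.

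The 3 arterial markers were all lower in GDSS members. SOX17 had 372 CPM in GDSS and 711 in Yorkshire members, a ratio of 0.523 (0.417 to 0.647). HEY1 had 96.1 CPM in GDSS and 208 in Yorkshire members, a ratio of 0.462 (0.290 to 0.701), and EFNB2 had 75.2 CPM in GDSS and 178 in Yorkshire members, a ratio of 0.422 (0.248 to 0.676). The other barcodes with CLDN5 had ratios of 0.732 (0.606 to 0.878), 0.481 (0.291 to 0.754) and 0.826 (0.552 to 1.19), of which that of EFNB2 held 1, and all other endothelial barcodes had 0.358 (0.299 to 0.425), 0.261 (0.170 to 0.385) and 0.469 (0.334 to 0.644). Without the 2 deepest GDSS barcodes the members' ratios were 0.643 (0.508 to 0.803), 0.482 (0.283 to 0.771) and 0.407 (0.215 to 0.704). Of 15 other arterial genes 10 were lower and 0 higher, beside 9.53% and 5.41% of all genes, with a median log2 ratio of −0.94 in members. In the other barcodes with CLDN5, 3 of the 15 were lower and 1 higher, beside 10.4% and 5.78% of all genes, at a median of −0.20. GJA4 stood at 0.331 (0.194 to 0.528) in members against 0.786 (0.464 to 1.26) in the other barcodes with CLDN5, MECOM at 0.286 (0.146 to 0.505) against 0.418 (0.226 to 0.712), and SEMA3G at 0.324 (0.147 to 0.625) against 0.343 (0.124 to 0.764). TMEM100, with 2 UMIs in GDSS members, stood at 0.110 (0.0132 to 0.402) against 0.479 (0.127 to 1.28). With the 2 deepest GDSS barcodes left out GJA4 stood at 0.147 (0.0537 to 0.323) and TMEM100, with 1 UMI, at 0.0731 (0.00184 to 0.413) in members. There 7 of the 15 were lower, beside 8.94% of all genes. No named gene turned sign with TMM factors. GJA5-positive barcodes were 3 of 49 GDSS and 51 of 354 Yorkshire members, and among members with DLL4 alone SOX17 stood at 384 CPM in GDSS and 539.9 in Yorkshire.

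Interferon response genes were lower in GDSS members, 6 of 13 with 0 higher, at a median log2 ratio of −1.05 beside −1.35 in the other barcodes with CLDN5, where 11 of the 13 were lower. IFI6 had 819 CPM in GDSS and 2047 in Yorkshire members, a ratio of 0.400 (0.345 to 0.461) against 0.522 (0.475 to 0.571) in the other barcodes with CLDN5. The transcription factor IRF1 had 305 CPM in GDSS and 812 in Yorkshire members, a ratio of 0.375 (0.293 to 0.475) against 0.551 (0.455 to 0.662). The antiviral GTPase MX1 stood at 0.159 (0.0512 to 0.375) in members against 0.362 (0.205 to 0.595), and at 0.0424 (0.00107 to 0.238) with 1 UMI once the 2 deepest GDSS barcodes were left out. Of 18 pan-endothelial genes 7 were lower and 0 higher, among them the junction cadherin CDH5 at 0.542 (0.384 to 0.746) in members against 0.738 (0.575 to 0.935). Of 12 SOX and ETS endothelial factors 7 were lower and 0 higher, among them ERG at 0.470 (0.288 to 0.728) against 0.536 (0.387 to 0.724). Each of these lists had a larger share of lower genes in members than the 9.53% of all genes. In the other barcodes with CLDN5, 5 of 18 pan-endothelial and 5 of 12 SOX and ETS genes were lower as well, beside 10.4% of all genes. The counts in members were 9, 7 and 6 without the 2 deepest GDSS barcodes.

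Capillary genes were split. CA4 had 121 CPM in GDSS and 421 in Yorkshire members, a ratio of 0.288 (0.191 to 0.416) against 0.293 (0.237 to 0.359) in the other barcodes with CLDN5. FABP4 had 3692 CPM in GDSS and 6533 in Yorkshire members, a ratio of 0.565 (0.527 to 0.605) against 0.246 (0.230 to 0.263), and of 0.300 (0.269 to 0.334) in members without the 2 deepest GDSS barcodes. The fenestral diaphragm protein PLVAP stood at 0.493 (0.409 to 0.589) against 0.390 (0.335 to 0.452), and at 0.298 (0.226 to 0.387) without them. With at least 2 UMIs of GJA5 and DLL4 required, which left 14 GDSS members, FABP4 and PLVAP turned sign, at log2 ratios of 0.52 and 0.18. CD36 had 2285 CPM in GDSS and 2131 in Yorkshire members, a ratio of 1.07 (0.980 to 1.17) against 0.998 (0.942 to 1.06), and both intervals held 1. In all, 4 of 18 capillary genes were lower, beside 9.53% of all genes. RBP7 alone of the 18 was higher, beside 5.41% of all genes, with 138 CPM in GDSS and 25.1 in Yorkshire members. Its ratio was 5.49 (3.45 to 8.61) against 4.18 (3.03 to 5.71). Of 20 elastic fibre and basement membrane genes 4 were higher and 4 lower, beside the same 5.41% and 9.53% of all genes. MGP had 802 CPM in GDSS and 184 in Yorkshire members, a ratio of 4.36 (3.65 to 5.19) against 1.67 (1.38 to 2.02), and of 2.70 (2.12 to 3.40) in members without the 2 deepest GDSS barcodes. COL4A1, a basement membrane collagen, stood at 1.60 (1.33 to 1.90) in members against 1.02 (0.889 to 1.17) in the other barcodes with CLDN5, and at 1.21 (0.954 to 1.51) without the 2 deepest, where its call ended. The chaperone HSPA5 stood at 1.86 (1.55 to 2.23) in members against 1.82 (1.60 to 2.06). CRYAB, a small heat shock protein, stood at 3.46 (2.66 to 4.47) against 2.64 (2.21 to 3.15), and 1 barcode held 50% of the CRYAB UMIs of GDSS members.

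The 10 highest ratios of GDSS over Yorkshire members were those of CCK, SCG3, ECRG4, FCN2, APOD, SPC24, CKB, ADAMTS4, ANKRD1 and NUPR1, from 195 for CCK to 5.66 for NUPR1. Of these, 8 had their highest count in 1 of the 2 deepest GDSS barcodes. ECRG4, a secreted precursor peptide, had 165 of its 167 GDSS UMIs in the barcode of 27325 UMIs, and so had SCG3, a secretory granule protein, 52 of 53. FCN2, a lectin of the complement pathway, had 48 of 56 and ADAMTS4, an aggrecan-cleaving protease, 117 of 132 in the barcode of 32733 UMIs. Without the 2 barcodes 4 of the 10 were called higher, CCK, APOD at 2.71 (1.09 to 5.94), ANKRD1 and NUPR1 at 2.04 (1.07 to 3.61), while ECRG4 was called lower at 0.156 (0.0187 to 0.572). CCK still rested on 1 barcode. ANKRD1, a mechanically induced ankyrin repeat protein, stood at 5.97 (4.26 to 8.31) with and 7.71 (5.49 to 10.8) without the 2 barcodes, against 2.83 (2.13 to 3.72) in the other barcodes with CLDN5. Of the other 9, APOD was higher in GDSS there too, at 2.24 (1.37 to 3.54), the intervals of CCK and CKB held 1, and SCG3, ECRG4, FCN2, SPC24, ADAMTS4 and NUPR1 were lower, with ratios from 0 for ECRG4 to 0.607 for ADAMTS4.

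The 10 lowest genes all had 0 UMIs in GDSS members, so only a bound on their ratio can be given. The folds below take 3 UMIs over the GDSS members as the limit and leave out the counting error of Yorkshire. The lower ends of the exact intervals, which take that error in, stand beside them. The genes were picked for their ratios. The protease MBTPS1, which activates sterol-responsive factors, was 4.12-fold lower in GDSS by this limit (lower end 3.29), with 113 UMIs in Yorkshire members. MYRIP, a motor adaptor of secretory granules, was 3.42-fold lower (lower end 2.73), and PRKAR2B, a regulatory subunit of protein kinase A, 2.59-fold (lower end 2.05). The chemokine CCL8 was 3.35-fold lower (lower end 2.67), although 91.3% of its Yorkshire UMIs were in 1 barcode. BCAR3, NTN5, BMP6, TMEM144, EPHA4 and ANGPT2 were 2.51- to 2.15-fold lower, with lower ends from 1.99 for BCAR3 to 1.69 for ANGPT2. EPHA4 is an ephrin receptor, BMP6 a ligand of the BMP pathway and ANGPT2 the destabilising ligand of the endothelial receptor TEK. In the other barcodes with CLDN5 the ratios of ANGPT2, PRKAR2B and TMEM144 had intervals under 1, at 0.107 (0.00267 to 0.612), 0.303 (0.0970 to 0.724) and 0.102 (0.00255 to 0.583), while those of the further 7 genes held 1, from 0.176 for MYRIP to 1.24 for BCAR3.

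**Figure D5:**
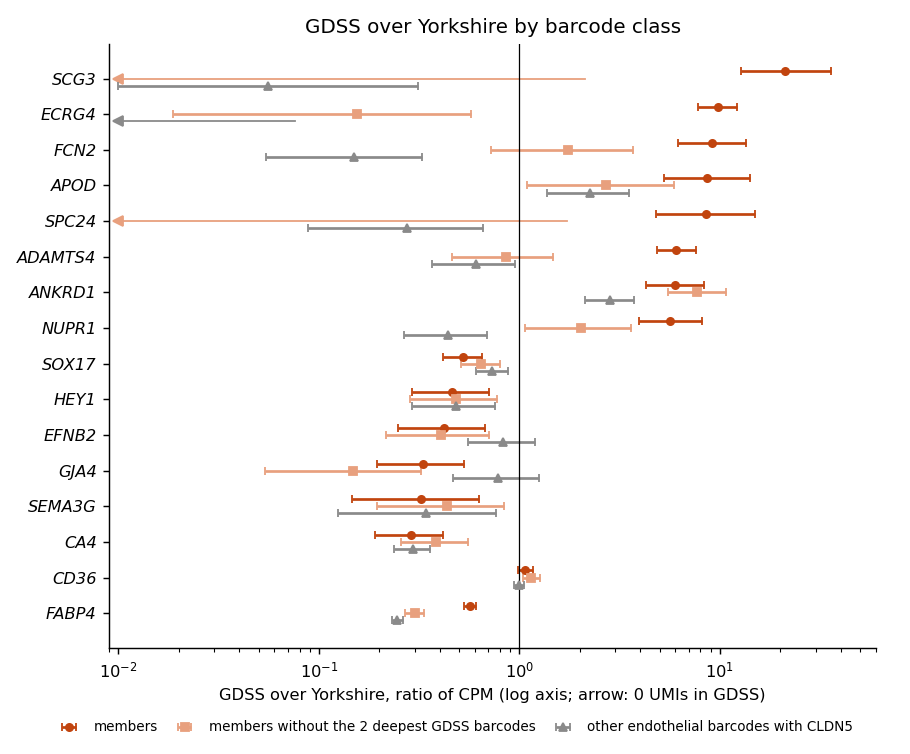
Ratio of CPM in GDSS over Yorkshire on a log axis, for 16 genes, in members (dark orange circles), in members without the 2 deepest GDSS barcodes (light orange squares) and in other endothelial barcodes with CLDN5 (grey triangles). Bars are exact 95% conditional intervals drawn down to 0.01, arrows mark 0 UMIs in GDSS, and the line marks a ratio of 1. Once the 2 barcodes are left out, ECRG4 lies left of the line and the intervals of SCG3, FCN2, SPC24 and ADAMTS4 reach across it, while SOX17, HEY1, EFNB2 and GJA4 stay on the left.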

How the data were processed

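Single cell RNA of 2 libraries, 1 GDSS and 1 Yorkshire, was used. The deposited matrices hold raw UMI counts per gene and barcode. Per the submitters' processing notes the authors used Cell Ranger and R 3.5.2, and the matrix header gives software version 3.1.0. The genome build is not given in the sources used here. Gene symbols came from the files and, for 680 features, from the reference gene table.

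The members, gene lists and comparisons were chosen with earlier results of these data known. Counts were summed per library and class of barcodes and tested with edgeR 4.0.16 in R 4.3.3 (quasi-likelihood, TMM factors, library as a block, at least 30 UMIs over the 4 sums, Benjamini-Hochberg adjustment, threshold 0.05), with DESeq2 1.42.0 as an alternative. Barcodes are not replicates, and the 4 sums leave 1 residual degree of freedom. The 10 genes of the limits were left out of the tests. Breeds were set side by side as ratios of CPM with exact conditional 95% intervals and no test, and shares have Clopper-Pearson intervals. Thinning drew 1500 UMIs per barcode without replacement and left out shallower barcodes. No doublet caller was run, and an alternative leaves out barcodes above the 95th percentile of UMIs. Python 3.11.15 was used for sums and intervals. The fits were tested on simulated sums with the same folds in both libraries and a fixed spread. That setting does not cover genes whose UMIs lie mostly in 1 barcode or whose ratios differ between libraries.

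Genes were named by a rule: the markers, up to 4 called members of each list with the largest log2 ratio or up to 2 where none was called, the 12 highest and 12 lowest called genes, and the 10 highest and 10 lowest of GDSS over Yorkshire. Genes named from the comparison with CLDN5, from the split by GJA5 and from the breed lists beyond that rule were chosen after their values were seen. Results of some genes are not reported here. Totals were 42093851 UMIs in GDSS and 54300953 in Yorkshire.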

Additional observations from a re-analysis of the deposited data

Results flagged for a closer look

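FABP4 went opposite ways in the libraries, with a ratio of members over other endothelial barcodes of 3.75 in GDSS and 0.833 in Yorkshire. With CLDN5 in both classes the ratios were 1.91 in GDSS and 0.776 in Yorkshire, and the GDSS barcode of 32733 UMIs held 532 FABP4 UMIs.

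For 8 genes named between the breeds, the ratio of GDSS over Yorkshire lay on opposite sides of 1 in members and in other endothelial barcodes, with both intervals off 1. It was 21.1 in members and 0.0264 in other barcodes for SCG3, 9.73 and 0 for ECRG4, and 9.15 and 0.0801 for FCN2. SPC24 had 8.50 in members and 0.564 in other barcodes, and ADAMTS4 6.07 and 0.402. Each of these 5 had most of its GDSS member UMIs in 1 of the 2 deepest barcodes. COL4A1 had 1.60 in members and 0.599 in other barcodes. CCL8 had 0 in members and 2.50 in other barcodes, and BCAR3 0 and 4.43, both with 0 UMIs in GDSS members. In the other barcodes with CLDN5 the intervals of COL4A1, CCL8 and BCAR3 held 1, at ratios of 1.02 (0.889 to 1.17), 0.499 (0.0120 to 3.16) and 1.24 (0.316 to 3.53). None of these differences between classes or libraries was itself tested.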

How the results depend on the processing

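No paired analysis was possible because the breeds share only 1 replicate number, with 1 library each. Members and other barcodes were paired within each library by the library block. The 92 genes called between members and other endothelial barcodes, of 9572 tested, became 155 with median-of-ratios size factors and 235 of 14919 with no filter on low counts. They became 46 with DESeq2, 0 with no library block and 217 of 9553 with at most 10% mitochondrial UMIs. They became 162 of 9064 with GJA5 required, 222 of 9218 with at least 2 UMIs of GJA5 and DLL4, and 55 of 6626 at 1500 UMIs per barcode. Alternatives added after the data were seen gave 0 with bias-adjusted deviances, 50 of 5959 with CLDN5 and thinning, and 0 with CLDN5 and no library block. With CLDN5 and bias-adjusted deviances 2 passed, APOA1 and GPER1. The 438 calls against all other endothelial barcodes, of 10892 tested, became 252 of 8424 at a minimum of 100 UMIs, 85 with DESeq2 and 0 with no library block. They became 142 of 10693 with GJA5 required, 148 of 9517 without barcodes above the 95th percentile and 111 of 7738 when thinned. They became 212 of 10326 with CLDN5, 34 of 6910 with CLDN5 and thinning and 0 with bias-adjusted deviances. The 980 genes called between breeds became 492 with GJA5 required, 593 with at least 2 UMIs, 615 without barcodes above the 95th percentile and 272 when thinned. The members' share of endothelial barcodes became 0.569% in GDSS and 2.52% in Yorkshire with GJA5 required, 2.66% and 5.39% with at least 2 UMIs, and 8.70% in Yorkshire when thinned. The detected shares became, when thinned, 38.1% in GDSS and 47.6% in Yorkshire for SOX17, 7.14% and 21.3% for HEY1, and 4.76% and 19.2% for EFNB2. With at least 2 UMIs they became 78.6% and 87.2% for SOX17, and in Yorkshire 68.8% for HEY1 and 65.1% for EFNB2.

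Single genes that turned sign had these log2 ratios. With CLDN5, CCL5 stood at 0.42. FABP4 stood at −0.093 without barcodes above the 95th percentile, −0.17 when thinned, −0.41 with CLDN5 and thinning, −0.26 without GDSS and 1.91 without Yorkshire. With CLDN5, FABP4 stood at −0.23 without the 2 deepest barcodes, −0.040 with no library block, −0.37 without GDSS and 0.93 without Yorkshire. With CLDN5, without Yorkshire and without GDSS in turn, EFNB2 stood at −0.048 and 1.10, ALPL at −0.40 and 2.10, DEPP1 at −0.39 and 1.39, NOTCH4 at −0.51 and 0.44, JAG1 at −0.38 and 0.92, and NR2F2 at 0.34 and −0.77, and NOTCH4 stood at −0.0065 with no library block. Without the CLDN5 limit CD36 stood at 0.020, FABP5 at 0.11, AQP1 at 0.10, HES1 at 0.31, CLEC3B at 0.053 and JAG1 at −0.18. C1QB stood at 0.66 when thinned, 0.30 without GDSS and −6.84 without Yorkshire. Between breeds ECRG4 stood at −1.84 without barcodes above the 95th percentile and −2.37 without the 2 deepest, and ADAMTS4 at −0.17, and PLVAP and FABP4 stood at 1.32 and 1.55 with GJA5 required and 0.18 and 0.52 with at least 2 UMIs. Where no value above shows it, the cause was not tested. The 49 GDSS members limit every GDSS value.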
